A study of Mus musculus with 36 samples.

Results

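The genotype difference described here lies between 3 libraries of Cop1-floxed and 3 libraries of wild-type mouse bone marrow-derived macrophages collected at the LPS time labelled T2.5. These 6 of the 36 libraries of the series were taken by their group labels, and all genes with enough reads were compared. Bone marrow-derived macrophages (BMDMs) are grown in culture from marrow progenitors, and LPS, lipopolysaccharide from Gram-negative bacteria, activates them through the receptor TLR4. The series followed 3 individuals of each genotype, untreated at T0 and at 5 times with LPS. Both genotypes carried CreERT2, a Cre recombinase that needs tamoxifen to act, at the Rosa26 locus. The floxed group also carried loxP sites in Cop1, and the wild-type group an unmodified Cop1. All 6 cultures had received LPS at 100 ng/ml at day 7 of differentiation. The labels do not say whether tamoxifen was given, which exon is flanked, what share of the cells lost it, or in what unit the times are. In its title the series calls the floxed cells a knockout.

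COP1 is an E3 ubiquitin ligase that marks transcription factors for destruction. Its known substrates include C/EBP proteins, which it reaches through Tribbles adaptors, the ETS factors ETV1, ETV4, ETV5 and ETS2, and c-Jun. In macrophages C/EBP and ETS factors act beside NF-kB, AP-1 and interferon signalling when LPS switches on cytokine, protease and antiviral genes.

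The 6 libraries held between 31035532 and 37619874 counted reads, with 17894 to 18441 genes detected. Of 36528 genes, 15685 had enough reads to be tested. Levels are given in CPM, counts set relative to library size after TMM scaling. Differences are log2 fold changes, floxed minus wild type, with n = 3 libraries in each group, and p-values are from edgeR's quasi-likelihood test after Benjamini-Hochberg adjustment over all genes, with 0.05 as the threshold. Macrophage markers were abundant in every library, with a summed level of the 20 markers of 49200 to 52300 CPM in wild-type and 56300 to 59500 CPM in floxed libraries. Wild-type replicate 2 held Xist at 75.5 CPM together with Y-linked reads, while the other 5 libraries held Xist at 0.899 CPM or less. The labels do not say whether that library holds RNA of more than 1 mouse.

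The targeted gene was read first. Cop1 (chromosome 1, 159232156 to 159354872 in GRCm38.p6) stood at 14.4, 13.4 and 14.8 CPM in the wild-type libraries. The floxed libraries had 5.45, 6.85 and 6.13 CPM, all below the lowest wild-type library. The difference was -1.21 (SE 0.118, adjusted p = 2.88e-07), which left 43.3% of the wild-type mean. These cultures were measured in bulk, so fewer cells with an intact gene and less Cop1 RNA in each cell cannot be told apart. Of the 10 genes of the COP1 ligase complex and its Tribbles adaptors, Trib1 was the other one that passed, at 34.0, 30.5 and 32.2 CPM in wild-type and 50.3, 41.2 and 42.7 CPM in floxed libraries (0.47, adjusted p = 0.0318). The 2 groups did not overlap for Trib1, but its call held in 5 of 18 alternative settings.

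Across all genes, 602 (3.84% of those tested) passed, of which 223 (1.42%) were higher and 379 (2.42%) lower in floxed cells. The genes that were lower differed by more: their median was -1.60, against 0.47 for the genes that were higher and 0.06 for all genes tested. At least 2-fold differences numbered 27 higher and 321 lower. The 3 libraries of each genotype did not overlap in 220 of the 223 higher and 377 of the 379 lower genes, where 24.9% of all genes tested did not overlap (16.7% with floxed higher and 8.19% lower). Scaling by library totals in place of TMM gave 91 higher and 451 lower, so that higher genes made up 16.8% of the calls instead of 37.0%. The counts also moved with single replicates. Without wild-type replicate 1, 2 or 3, all times included, 595, 159 and 62 genes were lower, and without floxed replicate 1, 2 or 3 these were 64, 111 and 201. Higher genes numbered 230, 134 and 52 without each wild-type replicate in turn and 44, 90 and 101 without each floxed one.

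**Figure D1:**
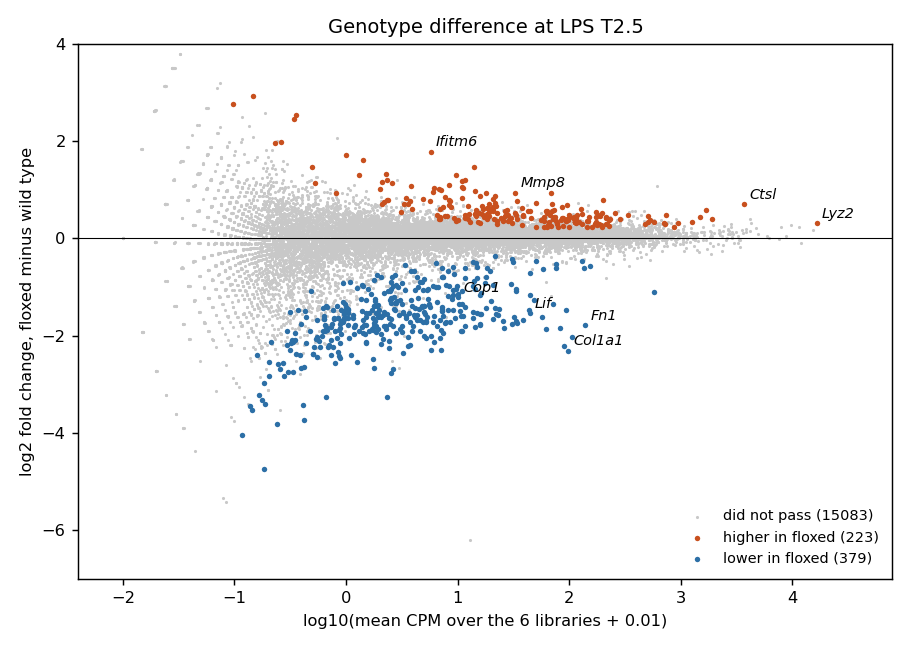
Log2 fold change (floxed minus wild type) at LPS T2.5 against the mean level over the 6 libraries, log10(CPM + 0.01), with 1 point per gene tested. The 223 higher genes lie close to 0 with a median of 0.47, and the 379 lower genes reach further from it with a median of -1.60.

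The 15 highest and 15 lowest genes were named by a rule that required no overlap between the genotypes. Their separation by library, as given below, was therefore fixed by that rule and is no added support. Among genes of at least 5 CPM, the highest difference was in Ifitm6, of the interferon-induced transmembrane protein family (chromosome 7, 141015812 to 141016892). Wild-type libraries had 2.17, 2.65 and 2.92 CPM and floxed libraries 9.35, 8.91 and 8.34 CPM, a difference of 1.78 (SE 0.23, adjusted p = 2.55e-05). Each floxed library was far above the highest wild-type one. Itgb7, encoding the integrin beta 7 subunit, had 6.94, 7.88 and 7.26 CPM against 19, 27.3 and 15.2 CPM (1.48, adjusted p = 0.000318). The floxed libraries varied among themselves for Itgb7, and the lowest was still above all wild-type ones. Htr2b, a serotonin receptor gene, had 6.56, 5.67 and 4.52 CPM against 14.3, 15 and 12.2 CPM (1.31, adjusted p = 0.00439). Flrt3, which encodes a leucine-rich repeat membrane protein, differed by 1.17, and Lipn, of the acid lipase family, by 1.10. Npy, encoding neuropeptide Y, had 46.2, 49.8 and 45.1 CPM in wild-type and 83.1, 99.1 and 87.2 CPM in floxed libraries (0.93, adjusted p = 0.000182). All 3 floxed libraries were well above the wild-type ones for Npy.

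Others of the named higher genes encode proteins of the myeloid cell surface or of neutrophil granules. Mmp8, the neutrophil collagenase gene (chromosome 9, 7558429 to 7568486), had 25.3, 20.1 and 22.5 CPM in wild-type and 44.2, 40 and 45.8 CPM in floxed libraries (0.94, SE 0.114, adjusted p = 1.14e-05). No library of one genotype came near the other. Slpi, encoding a secreted inhibitor of leukocyte proteases, had 13.3, 13.1 and 10.6 against 23.8, 25.5 and 21.8 CPM (0.94, adjusted p = 0.00417). Trem1, a receptor that amplifies inflammatory signals, had 5.06, 4.52 and 4.62 against 8.80, 11.2 and 8.23 CPM (0.99, adjusted p = 0.0174). Both genes were higher in every floxed library. Cd300lf, an inhibitory receptor gene, differed by 0.87, and Bst1, encoding the surface enzyme CD157, by 0.87, both with no overlap, as the naming rule required. The 15 highest also held 2 genes of other kinds, Plekhg1 at 0.95 and Abcd2, a peroxisomal fatty acid transporter gene, at 0.85. Trem1 and Bst1 each kept their call in 10 of 18 alternative settings, and Plekhg1 in 11. Neutrophil markers other than Mmp8 did not pass (1 of 13 tested was higher, against 1.42% of all genes tested). Their median was 0.08, against 0.06 for all genes, with members from -3.91 to 1.59. The summed level of the list was 118 to 137 CPM in wild-type and 158 to 164 CPM in floxed libraries. Mmp8 is part of that sum, with means of 22.6 and 43.3 CPM. The part of neutrophils in the results was not tested.

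The paired receptor genes of the Sirpb cluster on chromosome 3 were higher together. Sirpb1a had 6.91, 7.45 and 7.82 CPM in wild-type and 15.2, 15 and 15.3 CPM in floxed libraries (1.04, SE 0.132, adjusted p = 1.87e-05). Sirpb1b had 4.10, 4.32 and 4.95 against 9.01, 9.23 and 9 CPM (1.03, adjusted p = 7.54e-05). The floxed libraries of both genes lay within a narrow band above all wild-type libraries. Looking at their neighbours after these values were seen, 4 of the 6 genes tested that start between 15295063 and 16183148 were higher and 0 lower. Of all genes tested 1.42% were higher and 2.42% lower. The window was drawn around Sirpb1a and Sirpb1b, which are among the 4. The third was the gene listed as LOC100038947, which RefSeq names Sirpb1c, at 6.50, 7.39 and 7.45 against 15.5, 19 and 14.5 CPM (1.20, adjusted p = 6.77e-06). The fourth, Gm5150, had 9.45, 9.52 and 10.1 against 16.6, 21.4 and 18.9 CPM (0.97, adjusted p = 8.51e-05). Neither overlapped between genotypes. These genes are near copies of each other and only uniquely aligning reads were counted, so the split of reads among the 4 is uncertain.

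Of all calls, 17 higher and 5 lower genes kept their call and direction in all 18 alternative settings. Ifitm6, Mmp8, Npy, Sirpb1a, Sirpb1b and Ctsl were the named genes among the higher ones, and Cop1 and Postn among the lower ones. Promoter sequences of 5 of these, picked by hand, are shown. Npy, Ctsl and Cop1 kept their calls equally and are not shown. The sequences are from RefSeq in GRCm38.p6, each with 250 bases before and 50 bases after an annotated start, written 5′ to 3′ on the gene's strand. Capitals mark matches on either strand to TTNCNNAA, a shortened C/EBP motif; overlapping matches are merged. Ifitm6 is at chr7:141016843-141017142 on the minus strand, Mmp8 at chr9:7558179-7558478 on the plus strand, Sirpb1a at chr3:15426378-15426677 and Sirpb1b at chr3:15575016-15575315 on the minus strand, and Postn at chr3:54359017-54359316 on the plus strand. Postn has another annotated start, with its promoter at chr3:54360857-54361156, which is not printed. That sequence held C/EBP matches at -228 and -105 from its start.
Ifitm6: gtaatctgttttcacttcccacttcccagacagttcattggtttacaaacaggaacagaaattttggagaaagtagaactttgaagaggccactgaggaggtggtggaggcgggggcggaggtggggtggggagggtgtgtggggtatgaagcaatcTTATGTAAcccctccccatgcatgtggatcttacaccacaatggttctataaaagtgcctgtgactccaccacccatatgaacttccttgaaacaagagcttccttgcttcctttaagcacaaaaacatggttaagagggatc
Mmp8: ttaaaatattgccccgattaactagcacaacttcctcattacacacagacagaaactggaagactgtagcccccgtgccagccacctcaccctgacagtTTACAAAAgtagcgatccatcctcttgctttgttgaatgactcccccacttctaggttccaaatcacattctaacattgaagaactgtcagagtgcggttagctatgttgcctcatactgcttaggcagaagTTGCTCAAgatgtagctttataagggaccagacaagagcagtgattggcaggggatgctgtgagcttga
Sirpb1a: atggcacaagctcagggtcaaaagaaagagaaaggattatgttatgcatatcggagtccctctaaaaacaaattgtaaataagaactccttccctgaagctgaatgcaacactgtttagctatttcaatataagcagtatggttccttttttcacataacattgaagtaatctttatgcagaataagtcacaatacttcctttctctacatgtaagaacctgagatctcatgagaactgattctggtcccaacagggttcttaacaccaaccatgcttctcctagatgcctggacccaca
Sirpb1b: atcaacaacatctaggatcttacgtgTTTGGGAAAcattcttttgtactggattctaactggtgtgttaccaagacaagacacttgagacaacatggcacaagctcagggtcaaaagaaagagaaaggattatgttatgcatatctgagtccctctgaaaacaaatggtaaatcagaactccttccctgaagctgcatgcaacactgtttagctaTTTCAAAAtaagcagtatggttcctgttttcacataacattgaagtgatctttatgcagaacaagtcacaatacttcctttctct
Postn: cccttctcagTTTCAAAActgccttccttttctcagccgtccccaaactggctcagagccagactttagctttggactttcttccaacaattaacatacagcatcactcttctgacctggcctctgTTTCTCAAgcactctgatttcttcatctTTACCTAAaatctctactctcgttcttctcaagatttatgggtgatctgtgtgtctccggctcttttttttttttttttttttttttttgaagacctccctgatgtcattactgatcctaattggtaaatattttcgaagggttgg

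Ifitm6 held 1 such match, 93 bases before the start, and Mmp8 held 2, the nearer one 19 bases before it. The Sirpb1a and Sirpb1b sequences are 95.7% identical over the 207 bases that align without gaps, and Sirpb1a held 0 matches. The merged match of Sirpb1b that begins at -224 lies outside the aligned bases, so the printed Sirpb1a sequence does not cover it. The Sirpb1b match at -35 lies within them, where the Sirpb1a bases differ. Among promoters of genes tested, 32.6% held the C/EBP letters, against 40.7% of all 32851 promoters of this length. The share was 109 of 230 promoters (47.4%) for higher genes and 78 of 327 (23.9%) for lower genes. The ETS letters CCGGAAG were in 9.13% of the promoters of higher genes, 4.28% of those of lower genes, 15.9% of those of genes tested and 8.86% of all promoters. AP-1 letters, TGANTCA, were in 23 of 230 promoters of higher genes and 7.03% of those of lower genes, against 5.79% for genes tested and 7.81% for all. An NF-kB motif of 3 G, any 5 bases and 2 C was in 57.8%, 72.2%, 65.1% and 50.8% in the same order. Both strands were read for each motif, and these are matches to letters only.

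The 15 lowest named genes included both chains of collagen I and several genes of other matrix proteins. Col1a1, for the alpha 1 chain of collagen I (chromosome 11, 94936224 to 94953042), read 89.7, 233 and 164 CPM in wild-type and 31.0, 29.8 and 37.4 CPM in floxed libraries (-2.31, SE 0.404, adjusted p = 0.00115). Its partner chain Col1a2 had 98.3, 235 and 181 against 43.1, 35.4 and 47.5 CPM (-2.03, adjusted p = 0.00175). For both genes wild-type replicate 1 was the lowest wild-type library and still above every floxed one. Timp3, an inhibitor of matrix metalloproteinases, had 83.8, 195 and 162 against 32.1, 26.9 and 35.9 CPM (-2.22, adjusted p = 0.00400). Postn, encoding the matrix protein periostin, had 7.58, 14.8 and 12.8 against 2.00, 2.58 and 2.62 CPM (-2.29, SE 0.278, adjusted p = 1.14e-05). The same order of the wild-type libraries returned in both. Scube3, a secreted EGF-domain protein gene, had 5.94, 9.18 and 8.89 against 2.29, 1.57 and 2.10 CPM (-2.01, adjusted p = 4.22e-05).

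The remaining named genes of this group lay between -1.95 and -2.36. Dclk1, a microtubule-associated kinase gene, was at -2.36, and Dkk3, a secreted Dickkopf family gene, at -2.30. Thbs2, encoding thrombospondin 2, and Ddr1, a collagen receptor kinase gene, were both at -2.04. Actg2, a smooth muscle actin gene, was at -2.21, the Wnt-induced matrix gene Wisp1 at -2.13 and Tnfrsf11b, encoding osteoprotegerin, at -2.02. Rcn3, a calcium-binding protein of the endoplasmic reticulum, was at -2.01 and the procollagen protease gene Adamts2 at -1.95. Counted by family after values were seen, 14 of 31 collagen genes were lower and 0 higher, with a median of -1.31. So were 4 of 5 lysyl oxidase genes, which cross-link collagen (Lox -1.16, Loxl1 -1.90, Loxl2 -1.60), 3 of 3 fibulins, 4 of 11 ADAMTS proteases and 3 of 4 TEAD transcription factor genes, against 2.42% of all genes tested. Fn1, encoding fibronectin, had 156, 270 and 226 CPM in wild-type and 69.1, 45.1 and 74.1 CPM in floxed libraries (-1.79, adjusted p = 0.00134). Fibrillin gene Fbn1 had 13.8, 17.8 and 15.7 against 6.79, 4.67 and 7.09 CPM (-1.35, adjusted p = 4.22e-05) and kept its call in all 18 settings. No floxed library reached a wild-type one for either gene.

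**Figure D2:**
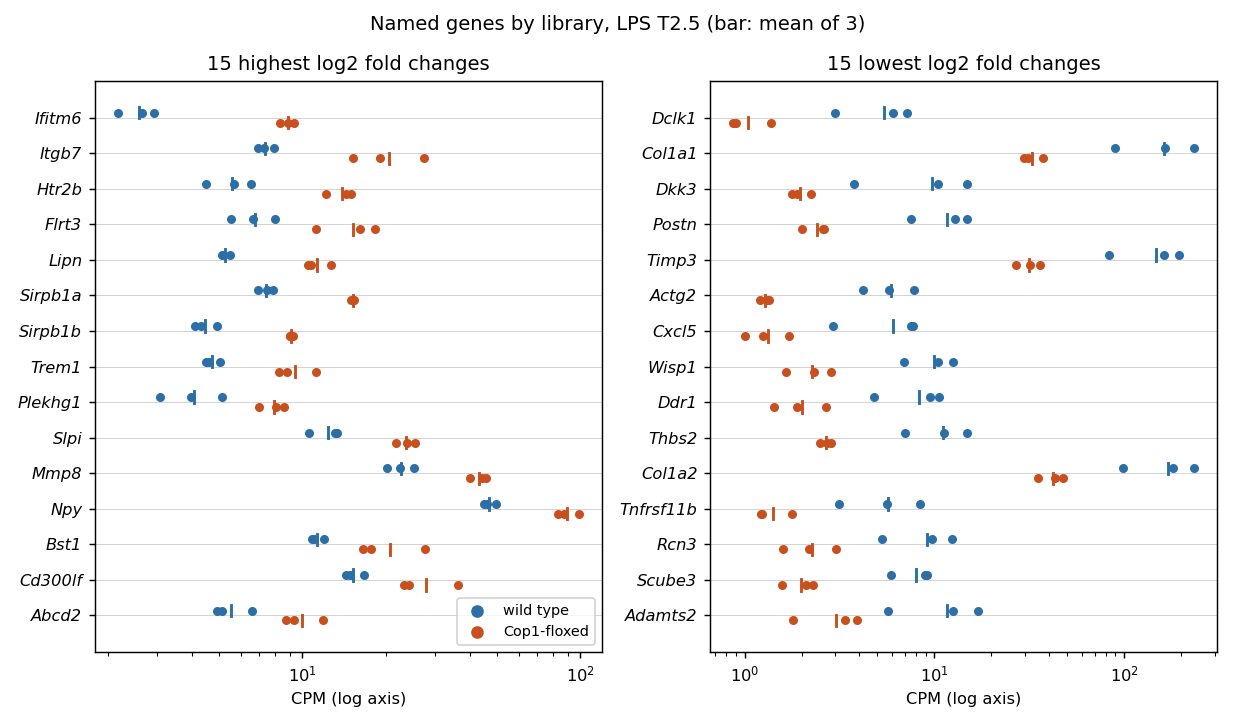
CPM on a log axis in each of the 3 wild-type and 3 Cop1-floxed libraries for the 15 highest (left) and 15 lowest (right) named genes, with bars at the means. The genotypes do not overlap for any of the 30, as the rule that named them required, and wild-type libraries spread more widely for the lowest genes, as for Col1a1 from 89.7 to 233 CPM.

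Markers of stromal and endothelial cells moved with the lower genes. Of 13 tested members, 10 were lower and 0 higher, with a median of -1.29, where 2.42% of all genes tested were lower and the median over all genes was 0.06. The count fell to 2 without floxed replicate 1, to 5 without wild-type replicate 3 and to 6 without wild-type replicate 2 or floxed replicate 2. Acta2, smooth muscle actin, had 62.4, 134 and 95.3 CPM against 27.4, 23.2 and 29.1 CPM (-1.87, adjusted p = 0.00285). Pdgfra (-1.68), Pdgfrb (-0.98), Tagln (-1.74), Col3a1 (-1.29) and the endothelial genes Cdh5 (-1.06) and Pecam1 (-1.04) also passed. The fibroblast genes Dcn (-0.63, adjusted p = 0.129) and Lum and the endothelial receptor gene Kdr (0.19) did not. The summed level of the 14 markers was 351, 777 and 588 CPM in the wild-type libraries and 161, 136 and 184 CPM in the floxed ones, so it was low but present in all 6. No marker was at 0 in every library, and 2 were under 1 CPM throughout. Wild-type replicate 1, the lowest of its group in this sum, was the lowest of the 3 wild-type libraries in 340 of the 379 lower genes (89.7%), against 31.8% of all genes tested and 22.9% of the higher genes.

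With the mean log2 level of this list added to the model as a covariate, chosen after seeing the data, 64 genes were lower and 98 higher. Of these, 7 of the 64 were among the 379 and 37 of the 98 among the 223. The covariate itself did not overlap between genotypes at T2.5, at 0.01 to 0.70 in wild-type and -1.18 to -0.61 in floxed libraries, so genotype and stromal marker level cannot be told apart in these 6 libraries. In that fit Cop1 stood at -1.35. Col1a2, Timp3, Dkk3 and Adamts2 turned to values above 0, while Postn, Col12a1, Fbn1 and the sulfotransferase gene Chst11 stayed below it and passed. Col1a2 and Postn are 2 of the 13 genes averaged in the covariate, so each was adjusted in part for itself. Chst11 had 45.5, 40.8 and 50.7 against 16.6, 23.2 and 25.3 CPM (-1.07, adjusted p = 4.22e-05), and here wild-type replicate 2 was the lowest of its group.

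Among macrophage markers, 2 of 20 passed and both were higher, where 1.42% of all genes tested were. Lyz2, encoding lysozyme, had 15400, 14100 and 14800 CPM against 19200, 18000 and 18100 CPM (0.32, adjusted p = 0.0243). Its libraries did not overlap between genotypes, but Lyz2 passed in 8 of 18 alternative settings. The median of the list was 0.14. Without wild-type replicate 2 or 3, or floxed replicate 1 or 3, 0 macrophage markers passed. Dendritic cell markers had 1 of 9 lower, the actin-bundling gene Fscn1 (-1.27, adjusted p = 0.00157), where 2.42% of all genes tested were lower. Their summed level was 169 to 246 CPM in wild-type and 126 to 151 CPM in floxed libraries. Lymphocyte and NK cell markers had 1 of 6 tested lower, Ebf1 at -1.64, with a sum of 35.7 to 41.2 and 20.7 to 34.6 CPM. Of these 13 markers, 10 were under 1 CPM in every library. For Fscn1 and Ebf1 wild-type replicate 1 was the lowest wild-type library, as in the stromal sum. With the stromal covariate neither gene passed. Of 3 erythroid and platelet and 5 mast cell and basophil markers tested, 0 passed; Hbb-b1, Hbb-bs, Mcpt4 and Tpsb2 were among those at 0 in all 6 libraries. The part of these cell types in other results was not tested.

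**Figure D3:**
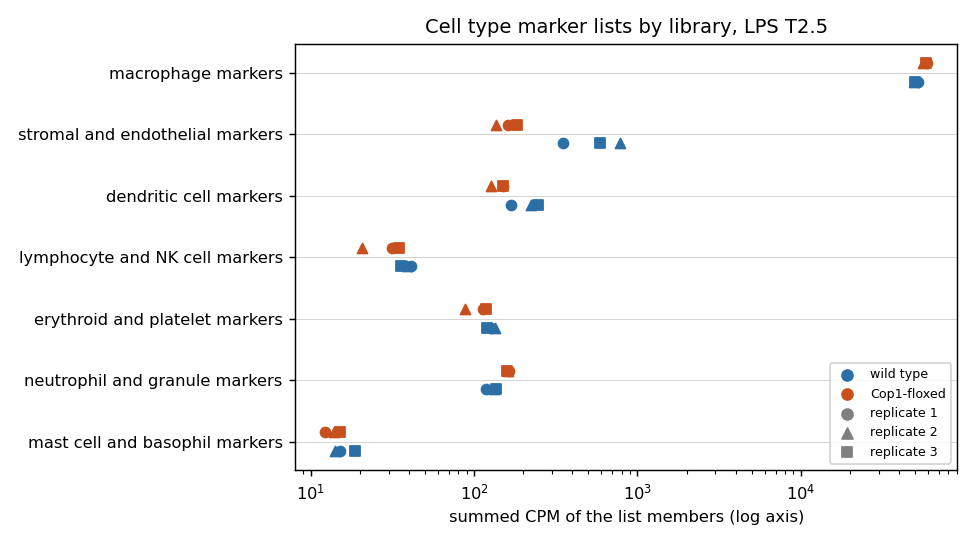
Summed CPM, on a log axis, of the members of each cell type marker list in the 3 wild-type and 3 Cop1-floxed libraries, with the marker shape giving the replicate. Stromal and endothelial markers range from 351 to 777 CPM in wild-type and from 136 to 184 CPM in floxed libraries, and macrophage markers are at 49200 CPM or above in all 6.

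In RNA, the transcription factor families related to COP1 had 0 or 1 member called in each direction, where 1.42% of all genes tested were higher and 2.42% lower. COP1 acts on the proteins, whose levels these libraries do not measure. Of the C/EBP family 0 of 7 passed, with a median of 0.13. Cebpb had 335, 331 and 347 CPM against 384, 360 and 363 CPM (0.13, adjusted p = 0.780). Cebpa stood at 0.32 (adjusted p = 0.404) and Cebpd at -0.01. In the ETS family 1 of 19 was higher and 1 lower. Ets2 had 220, 205 and 182 against 295, 256 and 255 CPM (0.41, adjusted p = 0.0242), and Etv4, at 1.41 CPM or less in all 6 libraries, was at -2.24 (adjusted p = 0.0148). Etv5 had 7.55, 6.10 and 7.17 against 4.82, 4.93 and 4.96 CPM (-0.50, adjusted p = 0.0579), which missed the threshold without overlap. The call of Ets2 held in 8 of 18 alternative settings, and Etv5 passed in 9. In the AP-1 family 1 of 18 was higher and 1 lower. The lower one was Fos, at 56.9, 56.4 and 63.5 against 42.8, 42.4 and 43.5 CPM (-0.46, adjusted p = 0.0308). Jun stood at -0.09 (adjusted p = 0.840).

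Reported C/EBP target genes had 5 of 26 higher and 0 lower, where 1.42% and 2.42% of all genes tested were, with a median of 0.20 against 0.06. Like the other lists, this one was chosen with earlier results of these data known, so the count is no test of the list. Beside Mmp8, Sirpb1a, Slpi and Trem1, the fifth was the lectin gene Clec4d, at 1360, 1140 and 1250 CPM against 1680, 1800 and 1640 CPM (0.45, adjusted p = 0.00487). The acute phase gene Saa3 had 400, 349 and 447 against 652, 1250 and 629 CPM and missed the threshold (1.08, adjusted p = 0.0561), with floxed replicate 2 far above the other floxed libraries. Il6, Nos2 and Arg1, also in this list, stood at 0.05, -0.03 and -0.20. The lowest member of the list, at -3.91, did not pass either. Between 2 and 3 genes of the list passed without wild-type replicate 3 or without floxed replicate 1 or 2.

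The best-known inflammatory cytokine genes did not pass, while single cytokine genes and 4 of 22 chemokine genes did, against 3.84% of all genes tested. Tnf had 2890, 2290 and 2630 CPM in wild-type and 2470, 2700 and 2720 CPM in floxed libraries (0.02, SE 0.181), and the groups overlapped. Il1b (-0.14), Il6 (0.05), Il12b (-0.42), Il10 (0.50, adjusted p = 0.0982) and Ifnb1 (0.74, adjusted p = 0.145) did not pass, nor did Ptgs2 (0.14) among the eicosanoid genes. Of 26 cytokine genes 1 was higher, Il36a, at 0.527 CPM or less in all libraries, and 1 lower. The lower one was Lif, the leukemia inhibitory factor gene, at 39.4, 84.4 and 73.8 against 24.4, 17.6 and 25.8 CPM (-1.54, adjusted p = 0.0127). Of 22 chemokine genes, 1 was higher and 3 lower. Ccl6 had 416, 423 and 449 against 620, 570 and 594 CPM (0.47, adjusted p = 0.0116). Ccl22, a chemokine that attracts regulatory T cells, had 19.2, 22.9 and 27.2 against 11.8, 11.1 and 14 CPM (-0.91, adjusted p = 0.00237). Cxcl5 (-2.20) and Cx3cl1 (-0.98) were also lower. In Lif, Ccl22, Cxcl5 and Cx3cl1 wild-type replicate 1 was the lowest wild-type library, as in the stromal sum. With the stromal covariate Ccl22 lost its call, and Lif, Cxcl5 and Cx3cl1 turned to values above 0. Without wild-type replicate 3, or without floxed replicate 1 or 2, 0 chemokine genes passed.

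Extracellular proteases and inhibitors had 3 of 29 higher and 5 lower, where 1.42% and 2.42% of all genes tested were: beside Mmp8, Adam8 had 1360, 1400 and 1310 against 1970, 2210 and 1930 CPM (0.59, adjusted p = 0.00157), and Mmp27 was at 0.48. Mmp2 (-1.19), Mmp9 (-0.79), Adamts4 (-0.61) and Timp3 were among the lower ones, of which 0 passed without wild-type replicate 3 or floxed replicate 1 and 2 without wild-type replicate 2. Lysosomal genes had 2 of 29 higher. Ctsl, encoding cathepsin L, had 3080, 2780 and 2700 against 4480, 4870 and 4550 CPM (0.70, SE 0.0819, adjusted p = 6.77e-06), with all floxed libraries well above the wild-type ones, and Gla, encoding alpha-galactosidase A, was at 0.29. Scavenger, lectin, Fc and phagocytic receptors had 4 of 26 higher (Trem1, Cd300lf, Clec5a 0.57, Clec4d) and 1 lower, the receptor kinase gene Axl at -0.62; without wild-type replicate 2 or 3 or floxed replicate 1 or 2, 1 of the 4 passed. Eicosanoid genes had 2 of 16 higher, Alox5ap (0.52), which encodes the 5-lipoxygenase activating protein, and the prostaglandin receptor gene Ptger2 (0.63).

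Growth factors made by macrophages had 3 of 18 lower: Vegfa, at 22.0, 40.4 and 32.8 against 12, 10.3 and 13.1 CPM (-1.43, adjusted p = 0.00466), Tgfb2 (-1.80) and Pdgfa (-0.49). Of all genes tested 2.42% were lower. In Vegfa and Tgfb2 wild-type replicate 1 was the lowest and replicate 2 the highest of the wild-type libraries, as in the stromal sum. With the stromal covariate Vegfa stood at -0.02, Tgfb2 at 0.05 and Pdgfa at -0.30, and none of the 3 passed. Without wild-type replicate 3, or without floxed replicate 1 or 2, 0 genes of this list passed, and 1 without floxed replicate 3. Vegfa was also the 1 of 25 glycolysis and HIF-1 target genes that passed. Inflammasome and cell death genes had 2 of 29 higher (Naip2 0.42, Mefv 0.42), where 1.42% of all genes tested were. Immediate early genes had 1 of 20 higher (Gadd45a 0.77, adjusted p = 0.00259), and unfolded protein and heat shock genes 1 of 25 (Hspa5 0.24). Naip2, Mefv and Hspa5 kept their calls in 8, 9 and 3 of 18 alternative settings, and Gadd45a in 17. MAP kinase feedback regulators had the phosphatase gene Dusp7 higher (0.41) and Spry4 lower (-1.36) among 17. NF-kB subunits and feedback inhibitors had 1 of 24 lower, Socs2 at -1.12. In 10 further lists 0 members passed. These were chemoattractant receptors (19 tested), Toll-like receptors and adaptors (27), interferon-stimulated genes (36), interferons with their receptors and regulatory factors (17), and arginine, nitric oxide, itaconate and oxidant genes (15). The others were NRF2 target genes (17), sterol and fatty acid synthesis genes (27), LXR and cholesterol efflux genes (10), cell cycle genes (32) and MHC class I presentation genes (15). MHC class II and costimulatory genes had 0 of 15, with a median of -0.25.

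Genes were then split by what LPS did to them. Classes were set from T4 against T0 over both genotypes, without the T2.5 libraries. Of 3084 genes induced at least 2-fold, 1.46% were higher and 1.69% lower in floxed cells at T2.5. Of 3361 repressed genes, 1.10% and 1.07% were. In the other 9240 genes, 1.53% were higher and 3.15% lower.

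Next, the difference at T2.5 was set beside that of the untreated cells of the same individuals at T0, where 1492 genes (9.51%) passed, 872 (5.56%) higher and 620 (3.95%) lower. The lower genes were largely lower already: 273 of them passed at T0, which is 72.0% of the 379 and 44.0% of the 620. Higher genes shared 151, which is 67.7% of the 223 and 17.3% of the 872. The individuals are the same at both times, so these shares are no independent repeat. At T4, where 750 genes (4.78%) passed, 325 (2.07%) higher and 425 (2.71%) lower, 268 of the lower and 151 of the higher genes passed too, and 98 genes passed at T2.5 and at neither of the other times.

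Interferon-stimulated genes were set side by side at both times. At T0, 30 of 36 were higher in floxed cells, with a median of 0.65, where 5.56% of all genes tested were higher. At T2.5 0 of 36 passed, where 3.84% of all genes tested did. The median was then 0.01, or -0.07 with library totals. Rsad2, encoding the antiviral enzyme viperin, had 8650, 6220 and 8090 CPM in wild-type and 6750, 7860 and 8090 CPM in floxed libraries at T2.5 (-0.02). At T0 it had 29.2 ± 6.80 and 90.5 ± 36.7 CPM (SD, n = 3). The genotypes overlapped under LPS, and the change of the difference was -1.65 (adjusted p = 0.00124). Ifit1, an RNA-binding antiviral gene, had 3670, 2870 and 3620 against 2860, 3680 and 3340 CPM at T2.5, and its difference changed by -1.48 (adjusted p = 0.000504). In 14 of the 36 the change itself passed, all with a negative value, and in 22 it did not. Of all genes tested, 0.351% passed with a negative change. With only the 12 libraries of the 2 times the change passed in 0 of the 36.

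In all, the change of the genotype difference from T0 to T2.5 passed in 62 genes (0.395%). It was negative in 55 (0.351%) and positive in 7 (0.0446%), where 952 genes (6.07%) had an unadjusted p under 0.05. The individuals were the same at both times, but the model held no term for individuals. The test therefore treated their libraries as independent. Il1a went from 3.56 ± 0.465 and 12.8 ± 7.51 CPM in wild-type and floxed cells at T0 to 1590 ± 284 and 1310 ± 147 CPM, a change of -2.14 (adjusted p = 0.00324). The collagenase gene Mmp13 went from 11.7 ± 2.77 and 35.9 ± 12.8 CPM to 1820 ± 187 and 1860 ± 123 CPM (-1.59). Tnn, encoding the matrix protein tenascin N, went the other way, from 3.75 ± 1.31 and 0.720 ± 0.172 CPM at T0 to 7.93 ± 1.16 and 8.64 ± 0.766 CPM (2.48, adjusted p = 3.96e-05). Of the genes that passed at T2.5 itself, the change passed in 2: Ets2, with 23.7 ± 4.13 and 19 ± 0.700 CPM at T0 and 0.73 for the change, and Gm22 (-1.54 for the change), chosen after its value was seen. When only the 12 libraries of the 2 times were fitted, 0 genes passed this test by edgeR, with 619 at an unadjusted p under 0.05; DESeq2 called 136 with all libraries. Without wild-type replicate 1 or 3 it was 27 in each case, and without floxed replicate 2 or 3 it was 23 and 28. Between T2.5 and T4 the change passed in 0 genes by edgeR, with 276 (1.76%) at an unadjusted p under 0.05, and in 0 by DESeq2 and limma.

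**Figure D4:**
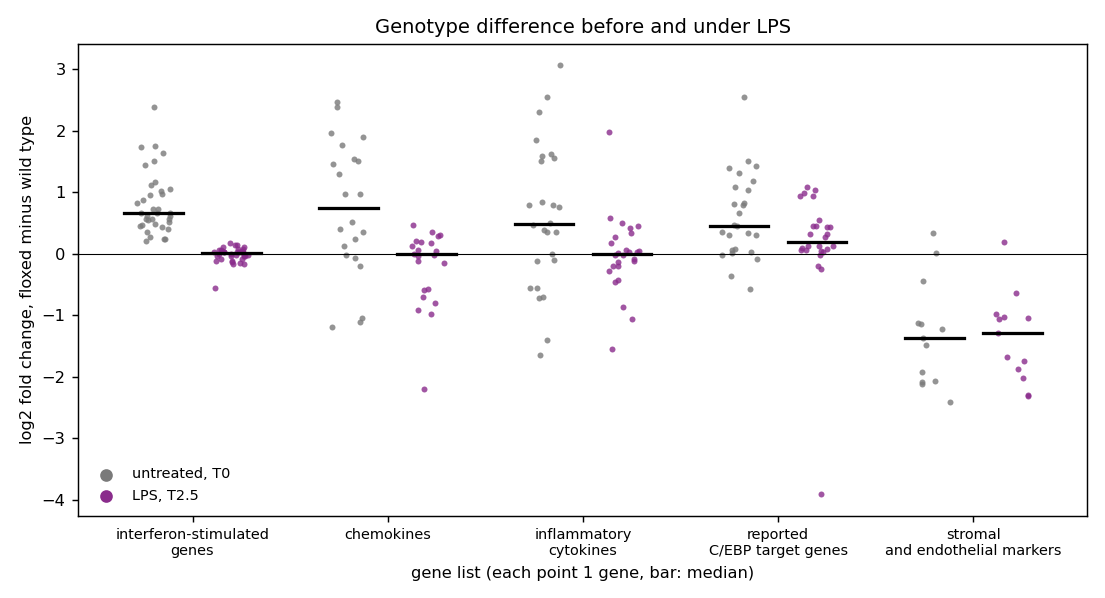
Log2 fold change, floxed minus wild type, of each member of 5 gene lists in untreated cells at T0 and with LPS at T2.5, with bars at the medians. Interferon-stimulated genes have a median of 0.65 at T0 and 0.01 at T2.5, while stromal and endothelial markers lie at -1.37 and -1.29.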

How the data were processed

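Polyadenylated RNA was sequenced from 36 cultures, per the labels. The deposited counts are uniquely aligning reads per Entrez gene model, not normalised, per the file headers. The deposited RPKM values were adjusted by the authors with size factors, per the file headers, and served only as an alternative. Another deposited table gives gene sizes and symbols, an other kind of value, per the file headers. The submitters' processing notes name GSNAP as a tool and GRCm38 as the build; the sources used here give no version, annotation release or strand setting, so overlapping genes cannot be told apart. Rows of ribosomal RNA held 0.00848% of the counts. Coordinates came from RefSeq GRCm38.p6, matched for 31049 genes (85.0%); Rfwd2 was read as Cop1, and promoters were found for 23 of the 31 genes looked up.

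A filterByExpr filter over the 12 groups set the genes tested. Counts were scaled by TMM and tested with the quasi-likelihood test of edgeR 4.0.16 in R 4.3.3, with 1 mean per group and all 36 libraries, and adjusted by Benjamini-Hochberg with a threshold of 0.05. The procedure was tested on simulated data. Standard errors were obtained by dividing each log2 fold change by the root of its F value. Replicates were separate individuals, per the labels, and no pair within the 2 groups agreed within sampling noise (chi-square per degree of freedom 10.0 to 26.0).

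Named genes are Cop1, the 15 genes with the highest and the 15 with the lowest fold change, of those past the threshold at 5 CPM or more and no overlap, up to 4 members of each of the 37 lists by adjusted p, 16 fixed genes such as Cebpb and Tnf, and the 10 smallest p-values of each test between times with a change of at least 1. Unnamed gene models, pseudogenes, Xist and Y-linked genes were left out of the rule. Members and lists were chosen with earlier results of these data known, so no list was tested as a set. A few genes that the rule names are not reported here. Alternatives were the size factors of DESeq2, library totals, other filters, DESeq2 1.42.0, limma 3.58.1 on log2(RPKM + 1) or log2(RPKM + 0.1), limma-voom, a replicate block, fewer libraries, leaving out each individual, and the stromal covariate.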

Additional observations from a re-analysis of the deposited data

Results flagged for a closer look

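Each of the following is a named gene whose genotype difference at T2.5 was tested against that at T0 and found to differ by edgeR's quasi-likelihood test with all 36 libraries. Groups of 3 were not examined for single outlying libraries.

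In 6 interferon-induced genes the difference was smaller at T2.5 than at T0. The change was -1.65 for Rsad2, -1.48 for Ifit1, -1.29 for Ifit2, -1.82 for the nucleotide kinase gene Cmpk2, -2.59 for the chemokine gene Cxcl11 and -1.89 for Trim30c. Iigp1, encoding an interferon-induced GTPase, changed by -2.08 and stood at -0.57 at T2.5, which did not pass (adjusted p = 0.124). Cytokine genes changed in the same direction, by -2.49 for Il6, -2.14 for Il1a and -2.73 for Il12b. The protease gene Mmp13 changed by -1.59. In the opposite direction, the change was 2.48 for Tnn and 0.73 for Ets2. Untreated levels of Il6, Il12b, Cxcl11 and Trim30c were at or below 2.62 CPM on average in both genotypes, so their T0 differences rest on few reads. None of the 13 passed when only the 12 libraries of the 2 times were fitted.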

How the results depend on the processing

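The Cop1 difference kept its call in all 18 alternatives, from -1.35 to -0.79, and between -1.30 and -1.16 when 1 individual was left out. Higher genes (223) became 91 with library totals, 103 without a filter, 115 at a mean of at least 5 CPM, 147 with log2(RPKM + 1), 143 with log2(RPKM + 0.1) and 98 with the stromal covariate. Lower genes (379) became 149 at 5 CPM, 252 with log2(RPKM + 1) and 64 with the covariate. Genes whose difference changed from T0 (62) became 136 with DESeq2, 35 with log2(RPKM + 1) and 0 with only the 12 libraries concerned. Leaving out 1 individual gave 44 to 230 higher, 62 to 595 lower and 23 to 63 changed genes (69 without the single library of floxed T9 replicate 2), and 0 between T2.5 and T4. With a smaller filter set fewer genes are tested; the cause of the other moves was not tested.

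The stromal covariate turned the sign of 14 of the named genes that had passed at T2.5. The values became 0.59 for Cx3cl1, 0.07 for Socs2, 0.10 for Mmp2, 0.51 for Lif and 0.05 for Tgfb2. They became 0.51 for Adamts2, 0.23 for Rcn3, 0.48 for Tnfrsf11b, 0.02 for Col1a2 and 0.05 for Thbs2. The others were 0.15 for Ddr1, 0.40 for Cxcl5, 0.18 for Timp3 and 0.97 for Dkk3. Sign changes of named genes that had not passed were not counted. Of 62 named genes that passed, 7 besides Cop1 passed in every alternative that gave a value.

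With a replicate block, 296 genes were higher, 479 lower, 79 changed from T0 and 0 from T4, with Cop1 at -1.21. The replicate numbers share only a number between genotypes: deviations of same-numbered libraries correlated at -0.08, -0.12 and 0.05.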

Other observations

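Genes beside Cop1 on chromosome 1 did not stand out in number. Within 10 Mb on each side, 111 genes were tested, of which 1 was higher, the long noncoding RNA gene Ptgs2os2 (0.64, adjusted p = 0.00236), and 3 were lower, Prrx1, Rgs16 and Gpr161, against 1.42% and 2.42% of all genes tested.

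Beside the named genes, several genes of metabolism and signalling were higher in floxed cells in all 18 alternative settings; they were chosen after their values were seen. Adk, encoding adenosine kinase, had 15.8, 16.5 and 16.9 CPM against 24.5, 26.2 and 26.2 CPM (0.64, adjusted p = 6.25e-05). Rraga, encoding a Rag GTPase that signals amino acids to mTORC1, had 54.6, 54.5 and 47.9 against 77.4, 78.6 and 70.9 CPM (0.53, adjusted p = 6.40e-05). The mitochondrial aldehyde dehydrogenase gene Aldh1b1 had 11.4, 12 and 12.1 against 16.9, 18.1 and 18.1 CPM (0.58, adjusted p = 0.00170). Emilin2, a matrix glycoprotein gene and so unlike the lower matrix genes in direction, had 163, 162 and 158 against 233, 233 and 227 CPM (0.52, adjusted p = 9.97e-05). The genotypes did not overlap for any of these 4. The lipid droplet gene Plin2 had 632, 626 and 592 against 901, 842 and 843 CPM (0.48, adjusted p = 0.000788) and kept its call in the 17 settings other than the stromal covariate.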
